A study of Homo sapiens with 2 samples.

Results

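TCONS probes are the oligonucleotides on the array whose target carries a TCONS name, the form of name given to a transcript that was assembled from RNA sequencing reads rather than taken from a curated gene record. They were chosen by that name alone. Of the 58201 non-control probes on each array, 1249 belonged to this group, each was printed once, and each had a transcript name of its own. Names of the form TCONS_l2 made up 1244 of them. Among the other 5, 3 carried a gene name as well, namely HOTAIR, HOTTIP and GNASAS, an older symbol of GNAS-AS1.

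The arrays compared a pair of substates of H9, an established human embryonic stem cell line. One array held Cy3-labelled RNA from substate 1 at passage 35 and the other held RNA from substate 2 at passage 50. The study characterised both substates in culture on Matrigel with TeSR-E8 medium. Per its methods, cells were also kept on vitronectin, and Matrigel culture began with cells of passage 35. The methods do not name the matrix of each array sample. Passage, matrix or time on Matrigel, and substate therefore cannot be told apart. Substate 1 was the study's name for typical colonies that stained strongly for the R-10G epitope and not for vimentin, and substate 2 for colonies with wide gaps between cells, weaker R-10G staining and vimentin. The labels name no genetic change or added agent for either group, and how the cells were separated for the arrays is not given in the sources used here. Each group had 1 array, so no difference has a replicate check and no p-value is given.

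Long noncoding RNAs are transcripts without a recognised protein product. Many are made at low levels and in few cell types, and embryonic stem cells are known to transcribe many intergenic regions. Some act near the place where they are made, for instance by guiding chromatin-modifying complexes, while for most assembled transcripts no function is known. An assembled model can also be a fragment of a longer transcript or can overlap a neighbouring gene. No file used here pairs the TCONS_l2 names with a position or a probe sequence, and of the 67 TCONS names that the RefSeq gene table for GRCh38.p14 lists as synonyms, 0 were on the array.

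Both arrays matched their labelled cell type. The 6 pluripotency genes of the marker list that had a matched probe, POU5F1 and NANOG among them, were measured on both arrays, with a summed level of 9.73 on the log2 scale in substate 1 and 9.99 in substate 2. Of the mesenchymal list 3 of 5 genes were measured on both arrays (summed level 7.38 and 7.25, THY1 the highest), with DCN and LUM near background on both. Of the neural ectoderm list NES was measured on both arrays, SOX1 and POU3F2 in substate 2 alone and PAX6 on neither (summed level 4.52 and 4.90). The endoderm list had 1 of 3 genes on both arrays, FOXA2, with summed levels of -2.52 and -1.90 for the list. The mesoderm list had 0 of 3 on both, with MESP1 measured in substate 2 alone (summed level -2.83 and -2.29). The trophoblast list had 0 of the 2 with a probe on both, with CGA measured in substate 2 alone and GCM1 in substate 1 alone (-3.41 and -2.71). The summed levels include probes that were not measured. No mesoderm probe was measured in substate 1, so the sum there is background, and the endoderm and trophoblast sums are background in part. The part of other cell types in the differences below was not tested. VIM differed by 2.53 and CDH1 by -1.47 on the log2 scale between substate 2 and substate 1, in the directions by which the study named the groups. All log2 levels are the processed intensity of an array relative to the 75th percentile of its probes, an intensity of 313.7 for substate 1 and 275.4 for substate 2. Differences are substate 2 minus substate 1.

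Most TCONS probes gave no detectable signal. A probe was taken as measured where the scanner software marked it well above background. By that mark 472 members (37.8%, 95% Wilson interval 35.1% to 40.5%) were measured in substate 1 and 412 (33.0%, 30.4% to 35.6%) in substate 2. These intervals cover counting error only. Of all probes 55.6% were measured in substate 1 and 52.8% in substate 2, so the share was lower in substate 2 there too. Signal on both arrays was found for 398 members (31.9%), on the substate 1 array alone for 74 (5.92%), on the substate 2 array alone for 14 (1.12%), and on neither for 763 (61.1%). Neither array measured 43.0% of all probes. In bulk RNA, fewer cells that make a transcript and less of it per cell cannot be told apart.

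Probes for curated messenger RNAs (NM names) were measured on both arrays in 75.1% of 25277 cases, and the share over all probes was 51.3%. Among the other noncoding or poorly annotated groups the share was 41.2% for curated noncoding RNAs (NR names), 32.8% for probes annotated by an Ensembl transcript and 25.1% for probes named lnc-. The TCONS probes therefore lay between the last pair, with a share close to that of the Ensembl probes. Measured on the substate 1 array alone were 5.92% of TCONS probes, 4.22% of all probes and 5.41% of lnc- probes. The substate 2 array alone measured 1.12%, 1.42% and 1.77% of the same groups.

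The series of probe designs within the TCONS group also differed in detection. Of the 1153 members with probe names starting A_21, 348 (30.2%) were measured on both arrays. For the 57 members starting A_33 it was 32 (56.1%, Wilson interval 43.3% to 68.2%), and for the 32 starting A_19 it was 14 (43.8%, 28.2% to 60.7%). Why the design series differed was not tested.

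Members without detection gave very little light. Their processed intensities ran from 2.85 to 19.2 in substate 1, with a median of 3.71, and from 2.97 to 20.0 in substate 2, with a median of 3.85. For comparison, the dimmest measured probe of any kind had an intensity of 14.5 in substate 1 and 15.0 in substate 2. Such members have no level here, only an upper bound. The 398 members measured on both arrays spanned a wide range, with a median of 115.6 and a highest value of 212995 in substate 1, against a median of 85.8 and a highest value of 209629 in substate 2. Across these members the log2 levels of the arrays had a Pearson correlation of 0.988, a description over probes that share both arrays.

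A small set of TCONS probes was among the brightest spots of the arrays. TCONS_l2_00009118 gave 212995 ± 21300 in substate 1 and 209629 ± 20963 in substate 2, where ± is the error that the scanner software assigns to a spot. It ranked 25 and 26 among all 58201 probes. TCONS_l2_00010291 gave 172654 ± 17265 and 184582 ± 18458, ranks 53 and 42. Both were thus close to the top of the array in each substate, although the brightness of a probe also depends on its sequence and gives no order of transcript amounts.

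The next was TCONS_l2_00005546, with 136315 ± 13631 and 147102 ± 14710. TCONS_l2_00016171 followed with 124577 ± 12458 and 133399 ± 13340, and TCONS_l2_00030171 with 103512 ± 10351 and 103485 ± 10348. After scaling, the differences of these 5 brightest members ran from 0.16 to 0.30 on the log2 scale, each with a scanner error of 0.20.

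The 10 members of highest mean brightness were all higher in substate 2 after the 75th percentile scaling, but the sign of 4 turned after loess centring on signal (TCONS_l2_00009118 to -0.08, TCONS_l2_00030171 to -0.04, TCONS_l2_00030893 to -0.01 and TCONS_l2_00003853 to -0.13) and that of 3 after quantile normalisation (TCONS_l2_00009118 to -0.04, TCONS_l2_00030893 to -0.01 and TCONS_l2_00003853 to -0.11), and that of TCONS_l2_00003853 under normexp (-0.04). Bright probes of other kinds were higher too. Among probes other than TCONS with a mean log2 level above 3 the median difference was 0.19 over 4959 probes, and among the 34 members at that level it was 0.20.

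The first comparison asked how the measured TCONS transcripts differed between the substates. They were on balance slightly lower in substate 2, except under normexp, a model-based background correction, where their median difference was 0.02. The median difference of the 398 members was -0.07 on the log2 scale, with quartiles of -0.34 and 0.23, and 175 of them (44.0%) were above 0. Over all 29883 probes measured on both arrays the median was 0.06 and 56.0% were above 0. Medians below 0 were also found for NR names (-0.03, 2672 probes), lnc- names (-0.04, 2689 probes) and predicted transcripts, coding XM and noncoding XR together (-0.09, 439 probes). Probes annotated by an Ensembl transcript had a median of 0.01 with 50.6% above 0 (3200 probes), and NM probes had 0.09. A median below 0 was thus shared with some of the other groups and not with the Ensembl probes. Differences were small for most members, as 344 of the 398 (86.4%) differed by less than 1.5-fold, against 88.9% of all probes.

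Divided by level, the lower median lay in the middle of the range. At a mean log2 level below -3 the 82 members had a median difference of -0.01, against 0.03 for other probes of that level. From -3 to -1 it was -0.12 over 155 members against -0.04. From -1 to 1 the values were -0.08 over 89 members and 0.03, and from 1 to 3 they were -0.07 over 38 members and 0.08. Above 3 the members had 0.20 and the other probes 0.19. The offset between members and other probes was therefore largest, by subtraction of these medians, from 1 to 3, and near 0 among the brightest.

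The scanner error of a member's difference had a median of 0.22 on the log2 scale and ran from 0.20 to 0.42. By that yardstick 66 of the 398 members were lower in substate 2 by more than 2 errors and 28 were higher. These are 16.6% and 7.04% of the measured members, against 9.94% and 10.2% of all probes measured on both arrays. The lnc- probes had 14.7% lower and 7.1% higher, the NR probes 13.8% and 8.72%, and the Ensembl probes 12.9% and 8.28%, so more lower than higher probes were found in these groups too. The remaining members stayed within 2 errors, 170 of them within 1. Under normexp 21 members (5.28%) were lower and 9 (2.26%) higher by this rule, against 4.93% and 5.6% of all probes, so that the share of lower members was near that of all probes there.

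Differences of 2-fold or more were rare. There were 8 members lower in substate 2 by that rule and 1 higher, which is 2.01% and 0.251% of the 398. Over all probes measured on both arrays 1.26% were lower and 0.85% were higher. With so few members past the limit, the shares differ from the background by a handful of probes. After loess centring 5 members were lower (1.26%, against 1.16% of all probes) and 3 higher (0.754% against 0.914%). After quantile normalisation 5 were lower (1.26% against 1.14%) and 2 higher (0.503% against 0.924%). The share of lower members was near that of all probes under both. No member passed the limit under normexp, where 0.204% of all probes were lower and 0.184% higher, nor did any bound given further on. That setting adds an offset of 50 to every spot before the log, which by arithmetic draws ratios of dim spots toward 1. It therefore cannot decide whether dim members differed by 2-fold.

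The lowest difference was that of TCONS_l2_00020648. Its intensity was 80.3 ± 8.53 in substate 1 and 21.5 ± 3.71 in substate 2, so that it was 3.28-fold lower, with a difference of -1.71 and a scanner error of 0.29. TCONS_l2_00026593 followed with 57.2 ± 6.42 and 19.0 ± 3.59, a difference of -1.40 with an error of 0.32. These were dim spots, and in substate 2 both lay only slightly above the dimmest measured probes.

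For TCONS_l2_00005064 the intensities were 60.1 ± 7.35 and 22.0 ± 4.51, and the difference was -1.26 with an error of 0.34. These 3 members were also the only ones measured on both arrays that lay past the Z-score limits described below. The next pair was brighter and better measured. TCONS_l2_00004724 gave 180.2 ± 18.3 in substate 1 and 69.2 ± 7.57 in substate 2, which was 2.29-fold lower with an error of 0.22 on a difference of -1.19. TCONS_l2_00019490 gave 332.8 ± 33.4 and 129.4 ± 13.3, 2.26-fold lower with an error of 0.21 on a difference of -1.17, and it was the brightest of the 8.

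The other 3 members past the limit stood just outside it. TCONS_l2_00017426 had 68.6 ± 7.60 and 29.6 ± 4.54, a difference of -1.03. TCONS_l2_00030131 had 80.6 ± 8.70 and 34.8 ± 4.91, a difference of -1.02, and TCONS_l2_00000881 had 51.6 ± 6.17 and 22.4 ± 4.28, also -1.02. Just inside it were TCONS_l2_00011289 with -0.98 (113.7 ± 11.8 and 50.5 ± 6.23), TCONS_l2_00007710 with -0.96 (227.9 ± 23.1 and 103.1 ± 11.1) and TCONS_l2_00014793 with -0.95. The distance between these on either side of the limit was smaller than the scanner error of any of them, so the count of 8 depends on where the limit is set.

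The one member 2-fold higher was TCONS_l2_00007764. Its intensity was 21.6 ± 3.87 in substate 1 and 38.7 ± 5.14 in substate 2, a difference of 1.03 with an error of 0.32, or 2.04-fold. Just inside the limit lay TCONS_l2_00003008 with 22.5 ± 3.67 and 39.2 ± 4.96 (0.99), TCONS_l2_00008966 with 16.5 ± 3.36 and 28.2 ± 4.18 (0.96), and TCONS_l2_00003330 with 21.7 ± 4.61 and 34.7 ± 6.21 (0.87). All of these were near the detection limit in substate 1.

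TCONS_l2_00011027 was the brightest of the 10 members with the highest differences. It gave 178.7 ± 18.2 in substate 1 and 275.4 ± 27.8 in substate 2, 1.76-fold higher, with a difference of 0.81 and an error of 0.21. TCONS_l2_00026542 gave 66.2 ± 7.32 and 94.98 ± 10.1, a difference of 0.71. The remaining 4, TCONS_l2_00019022, TCONS_l2_00025971, TCONS_l2_00027895 and TCONS_l2_00013424, had differences between 0.67 and 0.75 and intensities from 15.0 to 37.1 in substate 1.

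Noise between spots could be read from other probes, because no TCONS probe was printed more than once. Among probes printed 10 times and measured on the array, the median SD between spots was 0.21 in substate 1 (6 probes) and 0.19 in substate 2 (4 probes) at a mean log2 level below -3. From -3 to -1, where 4 of the 8 lower members lay, it was 0.11 and 0.16 (8 probes each). The difference of a pair of single spots then carried an SD of 0.29 below -3, 0.19 from -3 to -1 and 0.10 from -1 to 1. The 9 differences past 2-fold were picked for their size. That they exceed this spread between spots follows from that choice and is no check on them. This spread leaves out the cells, the RNA and the labelling.

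The second comparison concerned members measured on 1 array only, for which a bound replaces a fold. The bound is the ratio of the bright spot to whichever was larger on the other array, the dim spot itself or the dimmest measured probe, after scaling. Where the dim spot was larger, the bound is the plain ratio of the spots. No spot error is taken off, so a bound is not a lower limit that allows for noise. For the 74 members measured in substate 1 alone the signal there had a median of 21.5 and ran from 14.5 to 57.9. A bound above 1 was obtained for 59 of them, from 1.00-fold to 3.05-fold lower in substate 2 with a median of 1.29, and the other 15 get no fold. Only 5 (6.76%) had a bound of 2-fold or more, against 7.13% of the 2455 probes of all kinds measured in substate 1 alone.

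TCONS_l2_00016499 had the largest of these bounds. It gave 57.9 ± 6.89 in substate 1 and 16.7 ± 4.07 in substate 2, where it was not well above background, a bound of 3.05-fold lower. TCONS_l2_00026269 gave 43.1 ± 5.29 and 15.5 ± 3.60, a bound of 2.44-fold lower. TCONS_l2_00017151 gave 39.0 ± 5.01 and 15.1 ± 3.63, a bound of 2.26-fold lower. In these the dim spot lay slightly above the dimmest measured probe, so the bound equals the scaled ratio of the spots.

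TCONS_l2_00029284 was different, with 35.4 ± 5.03 in substate 1 and only 5.64 ± 3.95 in substate 2. Its bound was at least 2.07-fold, set by the dimmest measured probe. TCONS_l2_00029176 gave 40.4 ± 5.26 and 17.6 ± 3.997, a bound of 2.01-fold lower that again equals the scaled ratio of the spots.

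The 14 members measured in substate 2 alone had signals there from 16.7 to 46.8 with a median of 22.5. Their bounds ran from 1.32-fold to 3.69-fold higher, and 4 (28.6%) were 2-fold or more, against 31.4% of the 828 probes of all kinds measured in substate 2 alone. TCONS_l2_00007305 led with 3.29 ± 3.30 in substate 1 and 46.8 ± 5.94 in substate 2, at least 3.69-fold higher. TCONS_l2_00024038 gave 2.95 ± 2.96 and 43.4 ± 5.34, at least 3.42-fold higher. In substate 1 neither spot exceeded its own error.

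TCONS_l2_00008041 gave 3.46 ± 3.15 and 36.1 ± 4.87, at least 2.85-fold higher, and TCONS_l2_00019333 gave 5.78 ± 3.55 and 30.0 ± 4.81, at least 2.36-fold higher. The fifth, TCONS_l2_00000903, with 14.6 ± 3.98 and 24.3 ± 4.63, had a bound of 1.89-fold higher, equal to the scaled ratio of its spots. Counted together, the members measured on 1 array were more often seen in substate 1 (74) than in substate 2 (14). Over all probes the same counts were 2455 and 828, so substate 1 also had the larger number there. After scaling, the dimmest measured probe lay at -4.44 on the log2 scale in substate 1 and at -4.20 in substate 2. The part of this difference in the counts was not tested.

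The members that carry gene names could be compared with other probes of the same gene. HOTAIR, a noncoding RNA made from the HOXC cluster on chromosome 12, was measured by its TCONS probe at 80.9 ± 8.62 in substate 1 and 69.2 ± 7.61 in substate 2. Its difference of -0.04, or 0.02 under normexp, was within the scanner error of 0.22. A probe for the HOTAIR accession NR_047517 gave 44.1 ± 5.29 and 37.8 ± 4.88, a difference of -0.03. Both probes thus gave differences that lay within their scanner errors.

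The other 3 HOTAIR probes share the accession NR_047518. One was measured in substate 2 alone, with 12.1 ± 3.31 and 18.9 ± 3.82, at least 1.485-fold higher, and 2 were near background on both arrays.

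HOTTIP, made at the distal end of the HOXA cluster on chromosome 7, was near the limit of detection. Its TCONS probe gave 17.3 ± 3.61 in substate 1 and 4.31 ± 3.36 in substate 2, with a bound of 1.01-fold lower. That bound was lost after quantile normalisation (0.02 on the log2 scale) and after loess centring (0.04). The 2 probes of the HOTTIP accession NR_037843 were near background on both arrays, with intensities from 3.40 to 4.13. The TCONS probe of HOTTIP had a Z-score of -2.99, past the limit, although its bound is hardly above 1.

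GNAS-AS1, an antisense RNA of the imprinted GNAS locus on chromosome 20, was the brightest of the gene-named members. The TCONS probe gave 1924 ± 192 in substate 1 and 1357 ± 136 in substate 2, a difference of -0.32 with an error of 0.20. The probe of the accession NR_002785 gave 3113 ± 311 and 2589 ± 259, a difference of -0.08. Neither was past 2-fold. Both differences were below 0, but that of the accession probe lay within its scanner error of 0.20, so its direction is not settled. Of the remaining 2 members without an l2 name, TCONS_00029938 gave 5043 ± 504 and 3484 ± 348 with a difference of -0.35. TCONS_00030000 was measured in substate 1 alone, with 34.9 ± 5.00 and 17.5 ± 4.22. Its bound of 1.75-fold lower, equal to the scaled ratio of its spots, was lost under normexp (0.05 on the log2 scale).

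The last comparison used the Z-score rule of the study, which takes a probe as changed where its difference lies 2 SD or more from the mean difference of all probes. The mean was 0.07 and the SD 0.63, so the limits were 2.53-fold higher and 2.29-fold lower. Past the limits were 47 of the 1249 members on the higher side (3.76%) and 52 on the lower side (4.16%), against 3.03% and 3.3% of all 58201 probes. Loess centring turned the balance, with 62 higher (4.96%) and 45 lower (3.6%) against 3.76% and 2.65% of all probes. Few of these 99 rested on signal. Among them 3 were measured on both arrays, 21 on the substate 1 array alone, 6 on the substate 2 array alone, and 69 on neither. Of all probes 3685 lay past the limits. Of these 292 were measured on both arrays, 689 in substate 1 alone, 364 in substate 2 alone and 2340 on neither.

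Of the 763 members that neither array measured, 9.04% had such a Z-score, and of all 25035 unmeasured probes 9.35% did. Of those 69 members 41 were on the higher side and 28 on the lower, with no level measured on either array. The share of measured members past the limits was 0.754%, against 0.977% of all measured probes. The Z-score counts of TCONS probes were therefore mostly counts of spots without detection, as were those of all probes.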

How the data were processed

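Cy3-labelled RNA of 1 substate 1 and 1 substate 2 sample was hybridised to single-colour Agilent arrays annotated on hg19. Per the file headers, the deposited intensity of each spot came from Feature Extraction 11.5.1.1 (protocol GE1_1105_Oct12), which subtracted background, gave dim spots a small positive value, assigned an error and set the detection flags. Per the methods, the deposited series matrix of log2 values has signals under 1 set to 1 and a shift to the 75th percentile of each array. It differed from the values computed here by 1 constant per array within 0.01 for 100% of probes.

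Intensities were floored at 1 (0 spots were lower), converted to log2, averaged over the spots of a probe without feature outliers (71 and 101 spots) and shifted by the 75th percentile of the array. Of the members, 0 had a spot outlier flag, 0 were saturated, and 3 had a background outlier flag. The scanner error of a difference combines the relative errors of both spots. A probe with several spots was measured where most of them were flagged. Names were matched through RefSeq accessions for 31104 probes. The number of arrays limits the precision, and 0 tests between the groups were possible.

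The members named are the 10 highest and 10 lowest differences, the 5 largest bounds each way, the 5 brightest, those next to the 2-fold limit and those named after a gene. Members and lists were chosen with earlier results of these data known, and the members without an l2 name, the bright members beyond the first 5, the limit of 2 scanner errors and the division by level were chosen after values were seen. Alternatives were median centring, quantile normalisation, loess (span 0.3), normexp (offset 50, on median spot and background signals because mean spot signals were not used here), outliers kept, the series matrix, other limits and other detection rules. Planned comparisons by probe coordinates or probe sequence were not made, since neither was used here. Counting was tested on simulated data, with changes well past 2-fold in probes measured on both arrays and less noise than between dim spots. Bounds, detection on 1 array only and changes near the 2-fold limit were not covered. R 4.3.3, limma 3.58.1, Python 3.11.15, pandas 2.3.3 and scipy 1.17.1 were used.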

Additional observations from a re-analysis of the deposited data

How the results depend on the processing

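No paired analysis was possible because there was a single array on each side, and none could be left out. Median centring, keeping outlier spots and the series matrix left the members' counts at 1 higher and 8 lower past 2-fold, 4 higher and 5 lower bounds, and a median near -0.07, and 46 named values moved by less than their scanner error. Quantile normalisation gave 2 higher and 5 lower members, and 49 higher and 53 lower Z-score calls (3.92% and 4.24%, all probes 3.22% and 3.3%). Loess gave 3 higher and 5 lower members, 3 lower bounds (4.05% of those measured in substate 1 alone, against 6.19% of all such probes), and 62 higher and 45 lower Z-score calls. The 5 lower members of either setting were all among the 8. Normexp gave 0 for each of these 4 counts, a median difference of 0.0229, and 5 higher and 31 lower Z-score calls (0.4% and 2.48%, against 1.4% and 3.5% of all probes). These 3 scalings were added for the Z-score after the data were seen. Over these 6 scalings the median of members minus that of other probes ran from -0.13 to -0.05, and members lower by more than 2 scanner errors numbered 64 to 67 except under normexp (21, with 9 higher). The normexp offset of 50 draws ratios of dim spots toward 1, so its counts are not on the same footing as those of the other scalings. How much of the normexp changes comes from the offset was not tested. Of 276 named values under an alternative, 38 moved by more than their scanner error and 0 that were past 2-fold changed sign. The bound of TCONS_00030000 went from -0.81 to 0.05 under normexp.

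A limit of 1.5-fold gave 17 higher and 37 lower members (4.27% and 9.3%, all probes measured on both arrays 4.68% and 6.37%). It gave 11 higher and 20 lower bounds (78.6% and 27.0%, all probes 72.5% and 25.7%). A limit of 3-fold gave 0 and 1 members (0.0% and 0.251%, all probes 0.177% and 0.147%) with 2 and 1 bounds (14.3% and 1.35%, all probes 12.9% and 1.47%). Requiring 2 times the dimmest measured signal left 44 members measured in substate 1 alone, and 0 higher and 3 lower members (0.0% and 0.926%, all probes 0.582% and 0.946%). It left 0 higher and 2 lower bounds (0.0% and 4.55%, all probes 15.9% and 2.84%). The looser flag for a positive and significant signal gave 690 members on both arrays, 146 and 82 on 1 array, 331 on neither, 33 higher and 40 lower members (4.78% and 5.8%, all probes 3.57% and 3.85%), and 44 higher and 42 lower bounds (53.7% and 28.8%, all probes 53.7% and 29.1%). Z-scores from the mean and SD of measured probes gave 106 higher and 129 lower members (8.49% and 10.3%, all probes 7.16% and 7.87%), and the median absolute deviation in place of the SD gave 98 and 188 (7.85% and 15.1%, all probes 6.42% and 12.1%). Planned comparisons by coordinates, shared gene name and probe sequence were not run. Members measured on both arrays had a median intensity of 115.6 in substate 1 and 85.8 in substate 2, against 14.5 and 15.0 for the dimmest measured probe. How far signal limits these counts was not tested.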

Other observations

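What the numbers in TCONS_l2 names stand for is not given in the sources used here. For 7 such names that RefSeq lists as synonyms, none of them on the array, numbers 7459, 15893, 21715, 21807, 25430, 27522 and 29132 belong to genes on chromosomes 13, 2, 4, 4, 6, 7 and 9, which is the order of the chromosome names when sorted as text. Members with adjacent numbers were therefore set side by side, a comparison chosen after the data were seen. Among the 1244 members with such names 194 pairs had adjacent numbers. Both members of a pair were measured on at least 1 array in 40 pairs, 1 member in 66 and neither in 88.

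In 30 adjacent pairs both members were measured on both arrays. TCONS_l2_00020647 and TCONS_l2_00020648 had differences of -0.91 and -1.71 on the log2 scale (substate 2 minus substate 1), TCONS_l2_00004724 and TCONS_l2_00004725 had -1.19 and -0.87, and TCONS_l2_00030396 and TCONS_l2_00030397 had -0.86 and -0.85. Both members of these pairs were lower. Opposite signs were found in other pairs, such as TCONS_l2_00013845 and TCONS_l2_00013846 with 0.62 and -0.57, and TCONS_l2_00011026 and TCONS_l2_00011027 with -0.31 and 0.81. Over the 30 pairs, which share both arrays and in 1 case a member, the Pearson correlation of the differences was 0.38, and 16 pairs (53.3%) lay on the same side of the members' median. For 38 neighbouring pairs that were 2 to 5 numbers apart the correlation was 0.09 and 55.3% lay on the same side. At 6 to 50 numbers apart the values were -0.03 and 49.0% over 153 pairs, and at more than 50 they were 0.06 and 53.2% over 173. The share on the same side was thus alike at each distance, while the correlation was highest for adjacent numbers, with 30 pairs behind it. The pairs named first have the lowest mean differences of the 30, and the correlation without them was not computed. It can rest on those few pairs, so no link between adjacent numbers is read from it.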
